A study of Homo sapiens with 101 samples.

Results

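The 36 genes described here encode proteins of the G1/S transition and of DNA replication. They were taken by name from a list, each was represented by the probe set with the highest mean over all arrays, and all 36 were found among the 19775 genes that the arrays measured. Affymetrix arrays measured the total RNA of SW480 and SW620 cells on 101 arrays, and every value below is a log2 expression level made with RMA. Both are established human colorectal cancer lines that come from a single case, SW480 from the primary tumour and SW620 from a metastasis to a lymph node. Each line carried either a short hairpin RNA against CDK5, HRAS, MAP2K1, MAP2K2, MAPK3 or NGFR, a non-target hairpin, an empty vector, or no vector at all (non-transduced). The 9 treatments in 2 lines made 18 groups of 6 arrays, except that the CDK5 knockdown in SW620 held 5 and each non-transduced group held 3. The study asked which genes respond to each knockdown, to judge an inferred gene network, and its text speaks of 8 target genes, of which 6 are analysed here. The labels do not give the vector's promoter or whether the cells were cloned, and the HRAS samples carry 1 code in replicate 1 and a different one in replicates 3 to 6, with no word on what the codes mean.

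A cell that passes from G1 into S phase first loads the MCM helicase at origins. ORC, CDC6 and CDT1 load it, and CDC45 and the GINS complex turn it into a moving helicase. Cyclin E with CDK2, freed from inhibitory phosphate by CDC25A, drives this step, and E2F transcription factors switch on most of the genes concerned. Polymerases then copy the DNA with the PCNA clamp, ribonucleotide reductase and thymidylate synthase supply the nucleotides, and CAF-1 packs the new strands into chromatin. The RAS GTPases and the MEK and ERK kinases, 4 of whose genes were targeted here, are known to carry growth signals towards this transition. The array measures RNA of a whole culture, so fewer cells in S phase and less of each RNA per cell cannot be told apart.

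The promoters are shown because the E2F words in them are the sequence feature best known for genes of this set. RefSeq windows of 300 bases on GRCh38.p14, from 250 bases before the transcription start to 50 after it, were found for 31 of the 36 genes and not for CCNE2, CDK2, MCM4, MCM5 and RPA3. The words searched were TTTCCCGC, TTTCGCGC, TTTGCCGC and TTTGGCGC, on both strands, and overlapping matches were counted separately. Such a word stood in 16 of the 31 windows (51.6%), against 908 of all 27305 promoters in the table (3.33%). MCM6 at chr2:135876394-135876693 on the minus strand held 4 matches, 2 words on each strand that overlap in pairs. MCM2 at chr3:127598161-127598460 on the plus strand held 2 overlapping matches just after the start. CDC6 at chr17:40287629-40287928 on the plus strand and CDC25A at chr3:48188368-48188667 on the minus strand held 1 each. RRM2 at chr2:10122489-10122788 on the plus strand held none, and it had the largest mean change of the set in SW620. Capitals mark the matches, and each sequence reads from 5′ to 3′ along the gene's own strand.
MCM6: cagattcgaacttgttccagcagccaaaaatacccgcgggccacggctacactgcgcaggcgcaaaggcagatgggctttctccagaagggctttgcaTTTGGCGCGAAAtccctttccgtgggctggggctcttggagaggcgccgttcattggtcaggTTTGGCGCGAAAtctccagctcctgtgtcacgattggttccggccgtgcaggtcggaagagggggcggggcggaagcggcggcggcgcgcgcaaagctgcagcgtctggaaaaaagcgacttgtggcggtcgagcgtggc
MCM2: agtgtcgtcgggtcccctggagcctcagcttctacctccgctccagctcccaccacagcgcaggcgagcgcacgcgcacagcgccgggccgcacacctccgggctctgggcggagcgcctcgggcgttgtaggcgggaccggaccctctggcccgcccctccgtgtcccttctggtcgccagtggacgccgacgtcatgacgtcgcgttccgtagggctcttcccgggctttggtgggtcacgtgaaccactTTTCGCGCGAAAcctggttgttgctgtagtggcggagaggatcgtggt
CDC6: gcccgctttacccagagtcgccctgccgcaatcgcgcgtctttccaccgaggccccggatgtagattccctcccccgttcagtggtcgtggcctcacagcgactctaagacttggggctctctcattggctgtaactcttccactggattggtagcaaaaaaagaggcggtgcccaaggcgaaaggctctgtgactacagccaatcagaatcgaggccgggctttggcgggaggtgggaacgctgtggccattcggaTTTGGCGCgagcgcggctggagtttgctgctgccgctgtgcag
CDC25A: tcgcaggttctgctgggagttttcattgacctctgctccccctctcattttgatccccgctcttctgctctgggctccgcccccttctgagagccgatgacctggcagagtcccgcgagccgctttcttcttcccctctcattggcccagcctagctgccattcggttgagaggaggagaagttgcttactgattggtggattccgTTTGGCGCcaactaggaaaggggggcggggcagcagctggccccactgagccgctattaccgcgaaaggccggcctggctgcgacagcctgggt
RRM2: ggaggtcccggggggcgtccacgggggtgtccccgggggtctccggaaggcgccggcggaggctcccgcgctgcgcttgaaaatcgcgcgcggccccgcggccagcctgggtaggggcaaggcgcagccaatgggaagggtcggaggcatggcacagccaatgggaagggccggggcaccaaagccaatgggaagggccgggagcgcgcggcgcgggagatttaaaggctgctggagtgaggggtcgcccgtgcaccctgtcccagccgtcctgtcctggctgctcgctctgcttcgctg

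The letters CCAAT, searched on both strands, were in 18 of the 31 windows (58.1%), RRM2 and CDC6 with 3 matches each among them, against 35.7% of all promoters. The CHR words TTTGAA and TTCGAA, known from genes of G2 and mitosis and searched in the same way, were in 2 of the 31 (6.45%) against 16.6% of all. The 16 genes with an E2F word had a median mean change in SW620 of 0.69 (0.51 to 1.25), and the 15 without one had 0.74 (0.28 to 1.37). The ranges overlapped. A match is a description of the letters and was not tested as a binding site.

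The arrays fell into 4 sets by the style of their sample names, and the levels of the 36 genes differed between the sets. Replicate 1 made a set of 17 arrays, replicate 2 a set of 18 and replicates 3 to 6 a set of 64, and replicate 7 existed only for the non-transduced cells. The labels call all of these biological replicates but do not say which are separate cultures, so p-values measure only the spread between these samples. In replicates 3 to 6, arrays of 1 group lay close together, with a median SD of 0.07 for a gene, while the residual SD of the fit over all arrays had a median of 0.41. Averaged over the 36 genes, the vector controls of SW480 lay at 9.24 and 9.34 in replicate 1, at 8.76 and 8.74 in replicate 2 and between 9.75 and 9.85 in replicates 3 to 6. Every comparison was therefore adjusted for the set within each line.

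**Figure D1:**
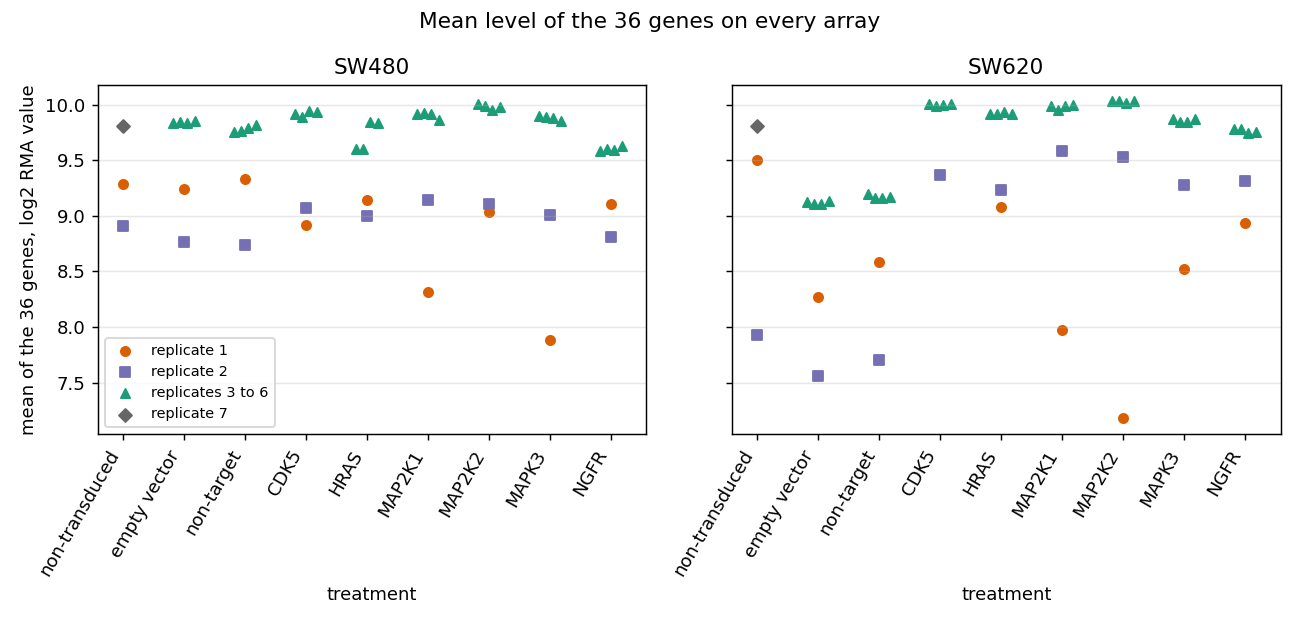
Each point is 1 array, and the vertical axis is the mean log2 RMA value of the 36 genes, by treatment and line. Symbols mark the replicate sets. In SW620 the empty vector and non-target arrays of replicates 3 to 6 lie at 9.10 to 9.20 and all knockdown arrays of that set at 9.75 to 10.04.

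Some arrays stood apart. A GAPDH 3 prime minus 5 prime difference over 2, a sign of degraded RNA, was found on 3 SW620 arrays, those of MAP2K1 replicate 2 (6.04), NGFR replicate 1 (3.82) and MAPK3 replicate 2 (2.95). On 3 SW480 arrays of replicate 1, those of MAP2K2, MAPK3 and MAP2K1, the genes that separate the lines lay 0.64, 0.49 and 0.37 of the way towards SW620, and on the other SW480 arrays at most 0.16. The targeted gene was lower in its own knockdown in 11 of 12 tests, with changes of -0.32 (MAPK3 in SW480) to -3.43 (NGFR in SW480). NGFR in SW620 was not called (-0.52 ± 0.26, limma adjusted p = 0.136), and HRAS in SW620 had -0.74 ± 0.28 (adjusted p = 0.0372). Values given for NGFR in SW620 are therefore those of the group labelled NGFR knockdown. Of the 8 epithelial and colon markers listed, EPCAM, KRT8, KRT18 and KRT19 had medians of 11.6 to 13.8 in both lines, and CDH1 and VIL1 had 7.78 and 6.96 in SW480 and 8.24 and 9.58 in SW620. The intestinal factors CDX1 and CDX2 had 6.07 and 7.05 in SW480 and 5.92 and 6.01 in SW620. Medians of the leukocyte markers PTPRC, CD3E and CD14 lay at 3.81 to 4.95 and those of the endothelial CDH5, VWF and PECAM1 at 3.72 to 6.03. The fibroblast gene LUM had a median of 3.22 in SW480 and 8.61 in SW620, and the other 4 fibroblast genes had 3.93 to 7.06.

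In SW620 most of the set was called higher in each of the 6 knockdowns than in the vector controls, which are the empty vector and non-target arrays as 1 reference. Of 216 pairs of gene and knockdown, 188 were called higher at a limma adjusted p under 0.05, none was called lower and 213 had a change above 0. The CDK5 knockdown, which has no array of replicate 1 in SW620, had 35 of 36 genes called higher, where 10.6% of all genes tested were. HRAS had 30 (14.2% of all genes), MAP2K1 33 (9.77%), MAP2K2 26 (10.5%), MAPK3 31 (13.9%) and NGFR 33 (12.9%). The median change of the 36 genes was 0.84, 0.85, 0.75, 0.69, 0.67 and 0.77 in the same order, while the median over all genes lay between -0.01 and 0.01. All 6 comparisons use the same 12 vector control arrays, so they are not independent of each other. With replicates 3 to 6 averaged in pairs by letter, 80 of the 188 calls were kept, and MAP2K1 and MAP2K2 had 5 and 2 of 36. Without a term for the replicate set 59 were kept, and none was against non-transduced cells or with replicates 1 and 2 alone.

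**Figure D2:**
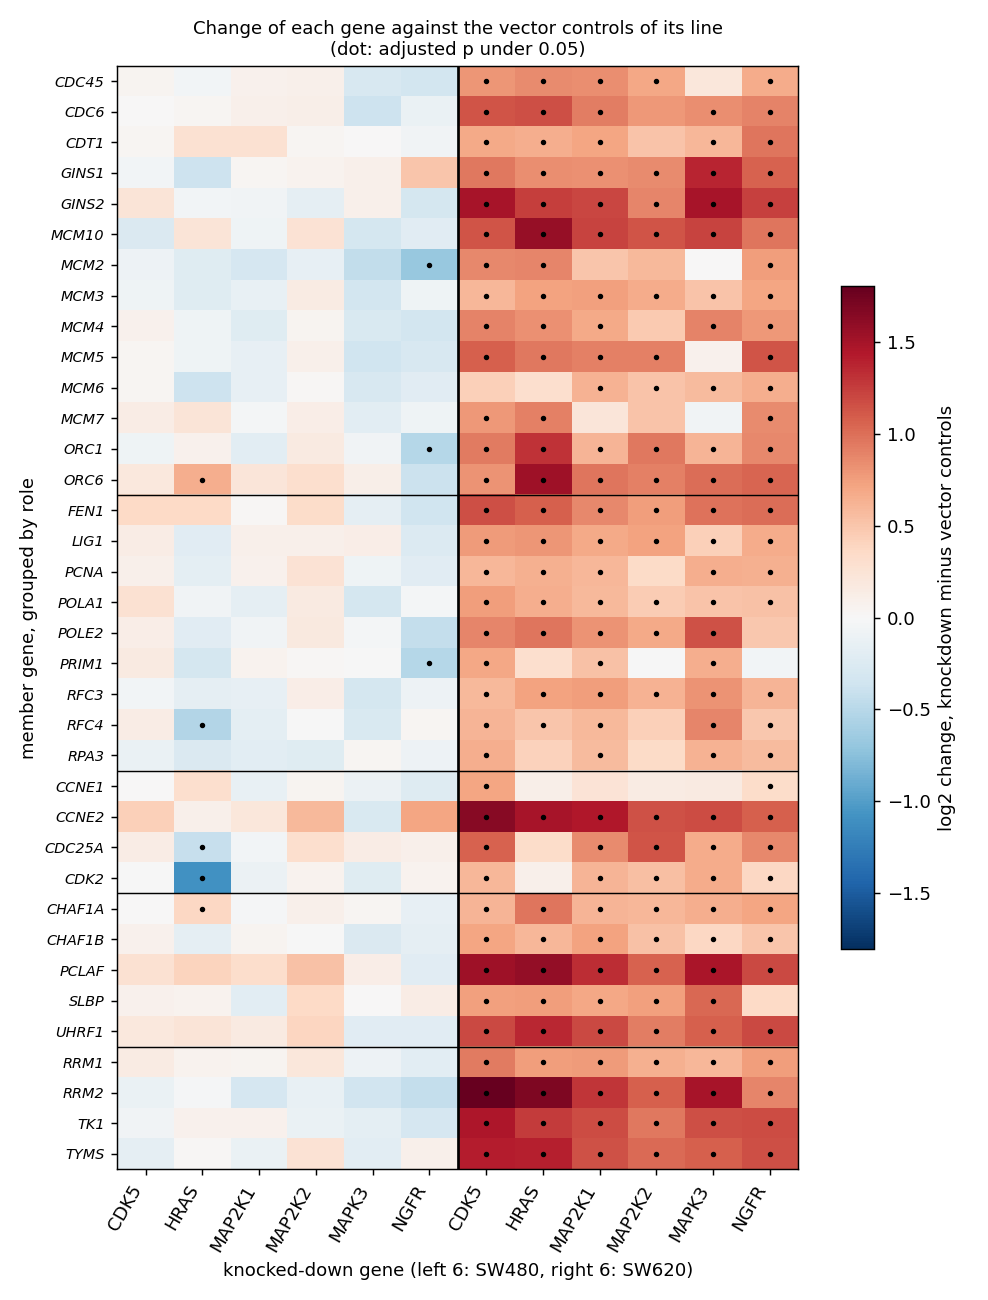
Rows are the 36 genes, grouped by role from the top: licensing and helicase, polymerase with clamp and fork, G1/S cyclins and kinase control, chromatin and histone, and nucleotide supply. Columns are the 6 knockdowns in each line. Colour is the log2 change against the vector controls of the line, and a dot marks a limma adjusted p under 0.05. The right 6 columns (SW620) hold 188 dots and the left 6 (SW480) hold 8.

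Each gene's own share of these calls varied. Called higher in all 6 knockdowns of SW620 were 19 genes, 11 were called in 5 and 6 in fewer. These 6 were CCNE1 (2 knockdowns), MCM2, MCM7 and PRIM1 (3 each), and MCM6 and RPA3 (4 each). The largest mean changes over the 6 knockdowns were those of RRM2 (1.37), PCLAF (1.36) and CCNE2 (1.33), and the smallest those of CCNE1 (0.28) and PRIM1 (0.35). Over all arrays CCNE2 had the widest range, 3.70 to 9.42, and CHAF1B the narrowest, 5.69 to 7.80.

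The nucleotide genes were higher in every SW620 knockdown, all 4 of 4. RRM2, the small subunit of ribonucleotide reductase, lay between 9.91 and 10.05 on the 8 vector control arrays of replicates 3 to 6 and between 10.53 and 11.55 on the 24 knockdown arrays, with no overlap. In replicate 2 its controls were at 7.50 and 7.81 and the 6 knockdowns at 10.66 to 10.96. In replicate 1 its controls were at 8.31 and 9.24, and the knockdowns split, with HRAS at 10.90 and MAPK3 at 10.41 above them and MAP2K2 at 7.28 below. The fitted change of RRM2 ran from 0.88 (NGFR) to 1.79 ± 0.33 (CDK5, adjusted p = 1.48e-05). TYMS, thymidylate synthase, changed by 1.01 to 1.42, and its knockdown arrays of replicates 3 to 6 (11.63 to 12.00) lay farther above the controls (10.50 to 10.65) than those of any other of the 36 genes. TK1, thymidine kinase of the salvage route, changed by 0.94 to 1.46, and RRM1, the large reductase subunit, by 0.59 to 0.94.

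Licensing and helicase genes made up 14 of the 36, and 13, 13, 12, 9, 10 and 14 of them were called higher in the CDK5, HRAS, MAP2K1, MAP2K2, MAPK3 and NGFR knockdowns of SW620. GINS2 and MCM10, which act on the helicase as it starts, changed most on average, by 1.25 and 1.21. ORC6, a subunit of the origin recognition complex, had its largest change with HRAS (1.53 ± 0.22, adjusted p = 2.96e-08). Its 4 HRAS arrays of replicates 3 to 6 read 10.73 to 10.76, against 9.27 to 9.40 on the 8 controls, and the HRAS arrays of replicates 1 and 2 read 10.24 and 9.43 against 9.00 and 8.68 in replicate 1 and 7.15 and 7.47 in replicate 2. Every HRAS array thus lay above the controls of its own set. ORC1, the largest ORC subunit, also changed most with HRAS (1.31 ± 0.19, adjusted p = 5.25e-08), from 6.43 to 6.90 on the controls to 7.61 to 7.75 in replicates 3 to 6. GINS1 had the smallest adjusted p of the 36 genes in the MAPK3 knockdown (1.37 ± 0.21, adjusted p = 2.97e-07), where RRM2 (1.49), GINS2 (1.48) and PCLAF (1.47) had larger changes.

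In SW620 the MCM genes split on the MAPK3 and MAP2K1 arrays of replicate 2. In the MAPK3 knockdown of SW620, MCM2, MCM5 and MCM7, subunits of the replicative helicase, had fitted changes of 0.00, 0.08 and -0.06 and were not called. On the 4 arrays of replicates 3 to 6 they were above all controls, for example MCM5 at 9.32 to 9.44 against 8.62 to 8.82. On the replicate 2 array they read 7.87, 5.82 and 6.41, which are changes of -2.48, -1.73 and -2.90 against the controls of that set, while GINS1 (10.56) and CCNE2 (8.24) on the same array lay 3.92 and 3.88 above them. MCM4 and MCM6 on that array lay 2.20 and 2.27 above the controls. The MAP2K1 array of replicate 2 split likewise, with MCM4 at 2.09 and MCM6 at 2.08 above the controls, MCM5 at 0.71, MCM2 at 0.30 and MCM7 at -0.30. Both are among the 3 arrays with degraded RNA by GAPDH. On the other one, NGFR replicate 1, MCM5 and MCM7 lay 1.23 and 1.28 above the controls and MCM4 and MCM6 0.51 and 0.41. Without these 3 arrays 175 of the 188 calls in SW620 were kept. Whether the state of the RNA caused the split was not tested. MCM3 was called higher in all 6 knockdowns, MCM4 and MCM5 in 5, and MCM6 in 4.

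Genes of the polymerases, the clamp and the fork had median changes over 9 genes of 0.46 (MAP2K2) to 0.69 (CDK5). Of these 9, the knockdowns in the order CDK5, HRAS, MAP2K1, MAP2K2, MAPK3 and NGFR had 9, 7, 9, 5, 9 and 7 called higher. FEN1, the flap nuclease that trims Okazaki fragments, had the largest mean change (0.97), and its arrays of replicates 3 to 6 moved from 10.28 to 10.37 on the controls to 11.11 to 11.51. PCNA, the sliding clamp, rose in 5 knockdowns by 0.60 to 0.65 and had 0.34 in MAP2K2, which was not called. With MAP2K2 it had -1.94 on the replicate 1 array, 1.62 in replicate 2 and 0.59 in replicates 3 to 6. In replicates 3 to 6 the other knockdowns had 0.45 (MAPK3) to 0.63 (NGFR). PRIM1, the primase subunit, rose with CDK5 (0.69), MAP2K1 (0.53) and MAPK3 (0.65), and had 0.30, 0.00 and -0.04 with HRAS, MAP2K2 and NGFR. With MAP2K2 PRIM1 had -2.05 on the replicate 1 array, 0.76 in replicate 2 and 0.32 in replicates 3 to 6, where MAPK3 had 0.31. RPA3, a subunit of the protein that coats single strands, was 1 of 4 genes whose knockdown arrays overlapped the controls in replicates 3 to 6 (10.54 to 11.00 against 10.47 to 10.60). LIG1, the ligase of the lagging strand, POLA1 of the priming polymerase and the clamp loader RFC3 rose in all 6, and POLE2 and RFC4 in 5.

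Among the 4 cyclin and kinase genes, CCNE2, cyclin E2, rose in all 6 by 1.08 to 1.64. CCNE1, cyclin E1, was called higher with CDK5 (0.71) and NGFR (0.33) and had 0.10 to 0.25 in the other 4. Its NGFR change was 0.92 on the replicate 1 array, which had degraded RNA, and 0.83 in replicate 2. In replicates 3 to 6 it was 0.05, against 0.08 (MAPK3) to 0.27 (MAP2K1) in those other 4. On replicates 3 to 6 CCNE1 overlapped, at 6.72 to 7.00 on the controls and 6.76 to 7.50 on the knockdowns, and CCNE2 did not, at 7.03 to 7.49 against 7.85 to 9.03. CDC25A, the phosphatase that activates CDK2, had the smallest adjusted p of the set in the CDK5 (1.06 ± 0.16, 1.54e-07), MAP2K2 (1.13 ± 0.15, 5.77e-09) and NGFR (0.87 ± 0.15, 3.46e-06) knockdowns. It was not called with HRAS (0.33). CDK2 likewise rose in the other 5 by 0.38 to 0.67 and had 0.09 with HRAS.

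All 5 chromatin and histone genes were called higher in 5 of the knockdowns, and 4 in NGFR. There SLBP, which binds histone messages, had 0.36 and was not called. Its NGFR change was -1.31 on the replicate 1 array, which had degraded RNA, 1.07 in replicate 2 and 0.60 in replicates 3 to 6. CHAF1B, a CAF-1 subunit, had small but even changes, from 0.37 (MAPK3) to 0.73 ± 0.12 (MAP2K1, adjusted p = 1.39e-06). Its vector controls in replicates 3 to 6 read 6.90 to 7.01 and its knockdown arrays 7.19 to 7.75. CHAF1A, another CAF-1 subunit, changed most with HRAS (0.96 ± 0.14, adjusted p = 3.11e-08). PCLAF, a PCNA-binding factor, changed by 1.06 to 1.58, and UHRF1, which helps copy DNA methylation, by 0.92 to 1.36.

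**Figure D3:**
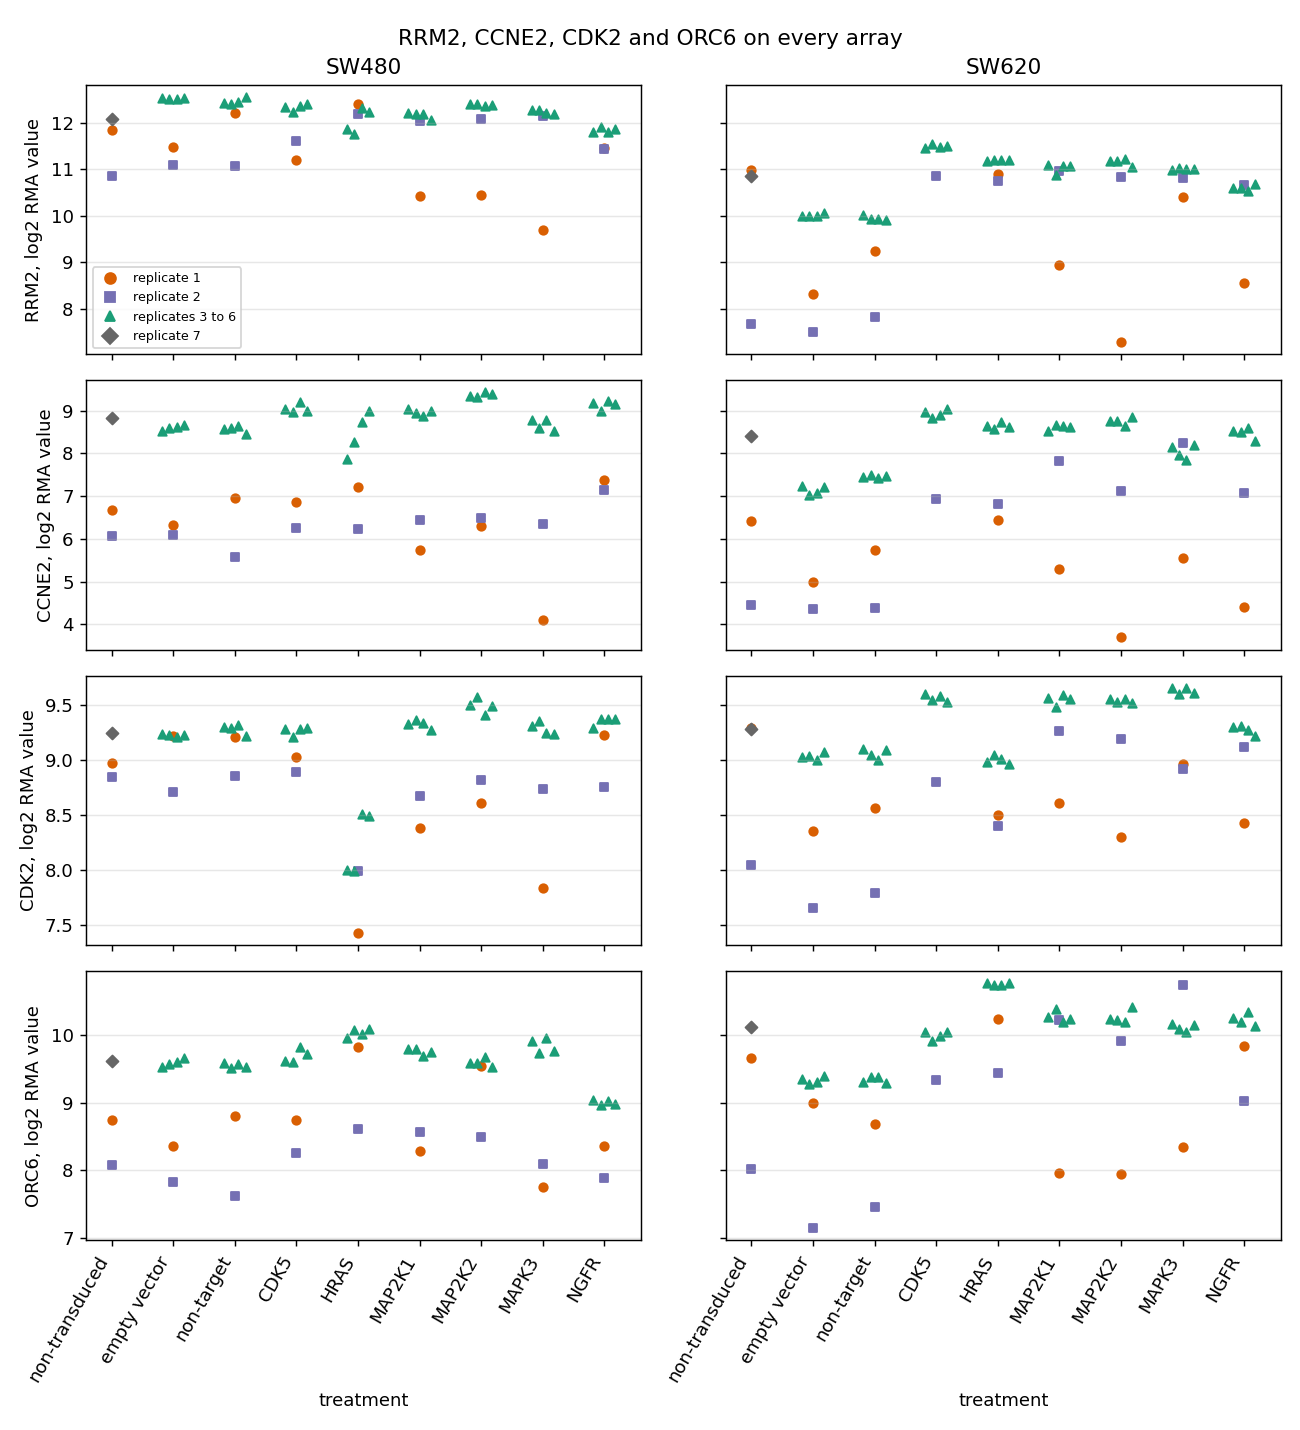
Each point is 1 array of RRM2, CCNE2, CDK2 or ORC6 on the log2 RMA scale, by treatment and line, with symbols for the replicate sets. In SW620 the vector controls of replicates 3 to 6 lie under all knockdown arrays of that set for RRM2, CCNE2 and ORC6, and for CDK2 the HRAS arrays overlap the controls. In SW480 CDK2 is low on all 6 HRAS arrays.

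In SW480 the fit over all arrays showed almost none of this. Of 216 pairs, 8 were called, and 102 had a change above 0. HRAS had 5 genes called, where 26.2% of all genes were called in either direction, and NGFR had 3 (24%). CDK5, MAP2K1, MAP2K2 and MAPK3 had 0 of 36 by limma, with 8.06%, 6.54%, 5.17% and 10.7% of all genes called, and at an unadjusted p under 0.05 they had 0, 0, 3 and 3. The shares of the 36 genes called in SW480 were thus below those of all genes in each of the 6 knockdowns. Median changes lay between -0.20 (NGFR) and 0.10 (MAP2K2). Without replicate 1 the counts were 4, 10, 4, 8, 4 and 12 for CDK5, HRAS, MAP2K1, MAP2K2, MAPK3 and NGFR, and without replicate 6 they were 0, 2, 0, 0, 0 and 0. With replicates 3 to 6 alone, whose arrays lie close together, they were 20, 23, 20, 25, 20 and 28. These counts take either direction, and the share of all genes called in these runs is not given here. In replicates 3 to 6, 28 (CDK5), 11 (HRAS), 27 (MAP2K1), 29 (MAP2K2), 25 (MAPK3) and 5 (NGFR) of the 36 genes lay above 0.

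CDK2 in the HRAS knockdown had the smallest adjusted p of the 8 calls in SW480. Its 6 HRAS arrays read 7.43, 7.99, 8.01, 7.99, 8.51 and 8.49 in replicates 1 to 6. The empty vector arrays read 9.21, 8.71, 9.24, 9.22, 9.20 and 9.23, and the non-target arrays 9.21, 8.85, 9.30, 9.29, 9.32 and 9.21, so no HRAS array reached any control. The change was -1.09 ± 0.12 (adjusted p = 6.32e-12), and a dimmer CDK2 probe set changed by -1.24 (adjusted p = 4.77e-04), while the dimmest, at a mean level of 4.04, changed by -0.11 (adjusted p = 0.392). The same HRAS group had RFC4 lower by 0.52 ± 0.17 (adjusted p = 0.0158) and ORC6 higher by 0.66 ± 0.22 (adjusted p = 0.0193). CHAF1A was higher by 0.37 ± 0.14 (adjusted p = 0.0389).

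Another call, CDC25A, was lower with HRAS in SW480 (-0.42 ± 0.15, adjusted p = 0.0258), but not on every array or probe set. In replicates 3 to 6 it read 8.25 to 8.61 against 8.84 to 9.43 on the controls, and in replicates 1 and 2 it read 8.80 and 8.06, above the controls (at most 8.69 and 7.96). The other 2 CDC25A probe sets changed by 0.10 and 0.27 and were not called. Within replicates 3 to 6 the HRAS arrays also differed by pair. RRM2 read 11.88 and 11.77 in replicates 3 and 4 and 12.32 and 12.23 in replicates 5 and 6, and PRIM1 read 8.91 and 8.91 against 9.72 and 9.76. The GAPDH differences of replicates 3 and 4 were 1.39 and 1.47, and their part in the result was not tested.

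With NGFR in SW480, PRIM1 (-0.51 ± 0.16, adjusted p = 0.0140), MCM2 (-0.69 ± 0.24, adjusted p = 0.0282) and ORC1 (-0.52 ± 0.19, adjusted p = 0.0388) were lower. PRIM1 read 8.67, 8.52, 9.30, 9.38, 9.31 and 9.35 over replicates 1 to 6, below the controls of the same set in each (at least 9.05, 9.22 and 9.62). MCM2 read 10.83 and 10.81 in replicates 1 and 2 and 10.12 to 10.30 in replicates 3 to 6, where the controls read 10.80 to 10.99. ORC1 fell below the controls of its set in every replicate too, the closest being replicate 2 with 5.52 against 5.62.

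The difference between the lines was tested directly. The change in SW620 minus the change in SW480 was called above 0 for 19 genes with CDK5 (6.5% of all genes), 28 with HRAS (10.2%), 21 with MAP2K1 (5.64%), 5 with MAP2K2 (4.53%), 25 with MAPK3 (8.17%) and 29 with NGFR (10.5%). None was called below 0 in any of the 6. For CDK5, replicate 1 has an array in SW480 only. These counts depended on single replicate numbers: without replicate 1 they were 35, 34, 34, 33, 29 and 33, and without replicate 6 they were 7, 18, 4, 0, 20 and 20. With replicates 3 to 6 averaged in pairs they were 0, 2, 0, 0, 3 and 3. For these reruns the share of all genes called is not given here, so the counts cannot be set against it. TK1 and CHAF1B differed in all 6 knockdowns, TK1 by 1.06 to 1.52 and CHAF1B by 0.53 to 0.76. RRM2 had the largest single difference, 1.92 with CDK5, followed by 1.84 with MAPK3. MCM5, MCM7, CDC6, CDT1 and PRIM1 differed in 1 knockdown each. Called lower in SW480 and higher in SW620 by the same knockdown were RFC4 with HRAS, and MCM2 and ORC1 with NGFR. RFC4 on its 6 HRAS arrays of SW480 read 8.93, 9.27, 10.44, 10.39, 10.44 and 10.47, each below the controls of its set (at least 10.04, 9.65 and 10.74). In SW620 it read 9.91, 10.06, 10.93, 10.95, 10.91 and 10.94, each above them (at most 9.75, 8.92 and 10.59). With NGFR in SW620, ORC1 read 5.57, 6.82, 7.34, 7.51, 7.23 and 7.37 and was above the controls of its set in each replicate, while MCM2 in replicate 1 (10.60) lay between its controls (10.26 and 10.70). The CDK2 difference with HRAS, 1.18, came from a fall in SW480 and a change of 0.09 in SW620.

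The reference itself differed between the lines. In the vector controls, 31 of the 36 genes were lower in SW620 than in SW480, where 48.6% of all genes differed in either direction, and none was higher. The median difference was -0.71. The coding of this comparison was chosen after its counts were seen, and with the lines compared at the set that only non-transduced cells have, none was called and 4 of the 31 changed sign. The count was 20 with the non-target arrays alone, 17 without a term for the replicate set and 4 with replicates 1 and 2 alone. For these alternatives the share of all genes called is not given here. RRM2 differed most (-2.76 ± 0.25, adjusted p = 1.18e-16), then CDC6 (-1.59 ± 0.26, adjusted p = 1.08e-07). ORC6, POLE2, PCNA, MCM3 and PRIM1 were not called, with -0.18 to -0.02. The knockdown arrays of SW620 in replicates 3 to 6 had a mean over the 36 genes of 9.75 to 10.04, close to the SW480 vector controls (9.75 to 9.85) and SW480 knockdowns (9.58 to 10.01) of that set.

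Non-transduced SW620 cells did not keep one place relative to the other groups. Their mean over the 36 genes was 9.50 in replicate 1, above the controls (8.27 and 8.58) and the knockdowns (7.18 to 9.08), 7.92 in replicate 2, between the controls (7.56 and 7.70) and the knockdowns (9.23 to 9.58), and 9.81 in replicate 7, a set that holds neither a vector control nor a knockdown. Against them, the vector controls of SW620 had 4 genes called lower, LIG1 (-0.92 ± 0.24, adjusted p = 0.0131), ORC1 (-1.02 ± 0.31, adjusted p = 0.0308), MCM3 (-0.82 ± 0.25, adjusted p = 0.0347) and TK1 (-1.14 ± 0.37, adjusted p = 0.0481). Of all genes 1.54% were called lower, and all 36 had a change below 0. This rests on the non-transduced arrays of replicates 1 and 2. Without replicate 1 none of the 36 was called lower, and without replicate 2, 33 were. Each of these reruns leaves 1 non-transduced SW620 array in a set shared with other groups. Their shares of all genes called are not given here, so the counts cannot be set against them. In SW480 the same comparison called 0 of 36 (0% of all genes by limma), and 0 at an unadjusted p under 0.05.

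With the non-transduced cells as the reference, an alternative added after the values were seen, none of the 36 genes was called in any SW620 knockdown. Of all genes, limma called 1.28% with CDK5, 6.04% with HRAS, 1.49% with MAP2K1, 0.774% with MAP2K2, 9.88% with MAPK3 and 4.91% with NGFR. At an unadjusted p under 0.05, the genes above and below 0 numbered 2 and 0, 3 and 0, 0 and 0, 1 and 0, 3 and 4, and 1 and 1 in that order. The median changes were 0.25, 0.27, 0.17, 0.03, 0.21 and 0.12. Of the 188 changes called higher against the vector controls, 41 lay below 0 against the non-transduced cells, and MCM3 and LIG1 did so in all 6 knockdowns. Only 2 non-transduced arrays a line share a replicate set with other groups, which limits the precision of this comparison. By limma, none of the 36 genes was called between the non-target hairpin and the empty vector, in SW480 (0.101% of all genes) or in SW620 (0.00506%). At an unadjusted p under 0.05 there were 0 in either line. In SW620, 30 of the 36 lay above 0 with the non-target hairpin, with a median of 0.12 against 0.01 over all genes. In SW480, 15 did, with a median of -0.03 against -0.02.

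Within the replicate sets the SW620 difference was not the same. In replicates 3 to 6, all 24 knockdown arrays lay above all 8 vector control arrays for 32 of 36 genes, as they did for 4.77% of all genes, and the exceptions were CCNE1, PRIM1, CDK2 and RPA3. In replicate 2, all 6 knockdown arrays lay above both controls for 31 of 36 genes (17.2% of all genes), with median changes of 1.52 (HRAS) to 2.15 (MAPK3). In replicate 1, which has no CDK5 array in SW620, this held for 0 of 36 (7.19% of all genes). There the HRAS and NGFR knockdowns had median changes of 0.52 and 0.59, MAPK3 had 0.00, and MAP2K1 (-0.47) and MAP2K2 (-1.29) lay below the controls. CDC6 was lowest with MAP2K2 in replicate 1, at 4.39 against 7.85 and 7.22. In replicates 1 and 2 alone none of the 36 was called in any of the 6 knockdowns.

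**Figure D4:**
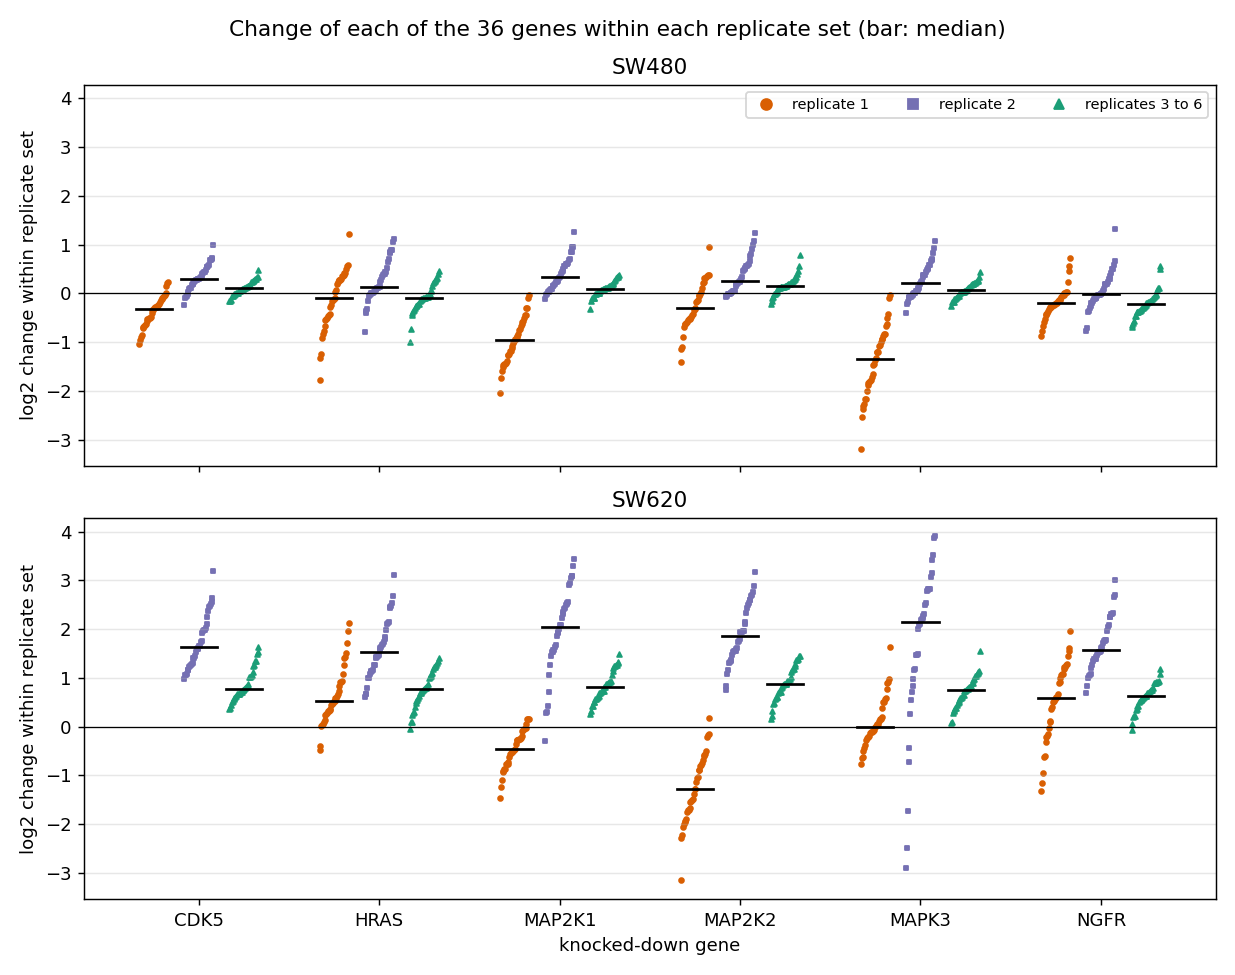
Each small point is 1 of the 36 genes, and the vertical axis is its log2 change against the vector controls of the same replicate set and line, by knockdown. Bars are medians. In SW620 the medians are 1.52 to 2.15 in replicate 2 and 0.63 to 0.88 in replicates 3 to 6, while in replicate 1 they run from -1.29 to 0.59.

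In SW480 no gene had all 24 knockdown arrays above all controls in replicates 3 to 6 (0.511% of all genes), 12 of 36 did in replicate 2 (11.7% of all genes), and in replicate 1, 8 of 36 had all 6 knockdown arrays below both controls (3.48% of all genes). In replicate 1 the MAPK3 and MAP2K1 arrays had all 36 genes below the controls, with medians of -1.35 and -0.96. These are 2 of the 3 SW480 arrays that carry genes of SW620. Without those 3 arrays all 8 calls in SW480 were kept, as were 104 of the 127 calls of the line difference. Why the 36 genes were low on these arrays was not tested. In replicates 3 to 6 the median change by knockdown ran from -0.22 (NGFR) to 0.15 (MAP2K2).

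Averaging replicates 3 to 6 in pairs by the first letter of their name ending, as would apply if each letter marks 1 culture, lowered the SW620 counts. They became 12 (CDK5), 22 (HRAS), 5 (MAP2K1), 2 (MAP2K2), 20 (MAPK3) and 19 (NGFR), and 80 of the 188 calls were kept. Without a term for the replicate set the counts were 19, 15, 6, 4, 9 and 6, and without the 6 arrays that stand apart they were 36, 33, 30, 33, 30 and 34. Of the 188 changes, 0 turned sign in any of these 3 runs. The share of all genes called in these runs is not given here, so the counts cannot be set against it.

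The knockdowns were also compared with each other, each against the mean of the other 5 in its line. This contrast leaves out the vector controls, but their arrays still enter the replicate-set terms and the spread of the fit. In SW620 few of the 36 genes stood out. CDK5 had 1 called (4.31% of all genes), CCNE1, higher by 0.51 ± 0.12 (adjusted p = 0.00402). HRAS had 4 (12.9%), ORC6 (0.59 ± 0.20) and ORC1 (0.51 ± 0.17) higher and CDC25A (-0.58 ± 0.13) and CDK2 (-0.47 ± 0.11) lower. MAPK3 had 4 (17.5%), all lower, CDC45 (-0.57 ± 0.15), MCM5 (-0.91 ± 0.25), MCM2 (-0.72 ± 0.22) and MCM7 (-0.72 ± 0.23). Without the arrays of degraded RNA only 1 was called with MAPK3, and the share of all genes in that rerun is not given here. NGFR had 1 (13.6%), PRIM1 (-0.48 ± 0.15), and MAP2K1 and MAP2K2 had 0 by limma (3.63% and 3.33%), with 0 and 2 genes at an unadjusted p under 0.05.

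In SW480, HRAS had 7 genes called against the other 5 knockdowns (32.1% of all genes) and NGFR 6 (32.6%), shares below those of all genes. CDK2 was lower with HRAS by 1.06 ± 0.11 (adjusted p = 2.35e-13), CDC25A by 0.55 ± 0.13 and GINS1 by 0.49 ± 0.19, and ORC6 was higher by 0.57 ± 0.20. CDK2 and CDC25A were thus called lower with HRAS, and ORC6 higher, in both lines in this comparison. With NGFR, ORC6 was lower (-0.68 ± 0.20), as were FEN1 (-0.53 ± 0.20), PRIM1 and ORC1, and GINS1 (0.54 ± 0.19) and CDK2 (0.34 ± 0.11) were higher. CDK5, MAP2K1, MAP2K2 and MAPK3 had 0 called by limma (10.4%, 5.36%, 3.29% and 10.2% of all genes), with 4, 1, 4 and 3 at an unadjusted p under 0.05. Without replicate 1, HRAS had 11 and NGFR 25 called in SW480, and MAPK3 had 12 and NGFR 9 in SW620. For that rerun the share of all genes called is not given here.

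Other genes of the same processes, 50 measured of 54 listed, were mostly called higher in SW620 too. The CDK5, HRAS, MAP2K1, MAP2K2, MAPK3 and NGFR knockdowns had 34, 40, 35, 30, 33 and 36 of them higher and 0, 0, 0, 0, 2 and 1 lower, with median changes of 0.48 to 0.68. CLSPN, the checkpoint adaptor claspin, had the smallest adjusted p of this list in 4 of the 6 knockdowns, with changes of 1.10 ± 0.16 (CDK5), 1.45 ± 0.15 (HRAS), 0.85 ± 0.15 (MAP2K1) and 1.10 ± 0.15 (MAP2K2). In MAPK3 it was TIPIN of the fork protection complex (1.37 ± 0.22), and in NGFR the transcription factor E2F2 (0.63 ± 0.11). In SW480 the same list had 0, 5, 0, 0, 3 and 6 genes called by limma, in each knockdown a smaller share than that of all genes (8.06%, 26.2%, 6.54%, 5.17%, 10.7% and 24%). At an unadjusted p under 0.05, the 3 knockdowns with 0 called had 3 (CDK5), 2 (MAP2K1) and 5 (MAP2K2). POLD2, a polymerase delta subunit, had the smallest adjusted p of this list with NGFR (-1.04 ± 0.16, adjusted p = 3.73e-07). The 17 mitotic genes of a marker list had 17, 17, 15, 17, 15 and 14 members called higher in SW620. Their median changes, 0.95 (MAPK3) to 1.21 (CDK5), were larger than those of the 36 genes in each knockdown. Of all genes, 9.77% (MAP2K1) to 14.2% (HRAS) were called higher. In the SW620 vector controls 11 mitotic genes were called lower than in non-transduced cells (1.54% of all genes).

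A second look at the probes used the 31 further probe sets of the 36 genes. Of these, 30 had a mean SW620 change above 0 and 20 were above 0 in all 6 knockdowns, 16 of them among the 22 with a mean level of at least 6. Only 1 probe set represented each of 16 genes. The probe sets used for CDT1, CHAF1A and ORC6 have names that end in x_at, which Affymetrix gives to probe sets that may also bind other transcripts.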

How the data were processed

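Total RNA was measured on Affymetrix arrays with 54675 probe sets on 101 samples. The deposited values are log2 expression made by the authors with RMA, per the submitters' processing notes, and array medians lay between 5.05 and 5.28. The number of arrays limits the precision. Each gene was represented by the probe set with the highest mean, among the 41097 that name 1 gene (1801 name several and 11777 none), which left 19775 genes. Groups came from the sample labels. limma 3.58.1 in R 4.3.3 fitted group and naming style within line on all arrays (77 residual degrees of freedom), with eBayes (trend and robust), and p-values were Benjamini-Hochberg adjusted over all genes for each comparison at 0.05. The line comparison uses the mean naming style of the control arrays in each line, and this coding replaced a first one after its counts had been seen.

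The members and lists were chosen with earlier results of these data known. All 36 genes are described, with values by array for the genes with the smallest adjusted p, those called in opposite directions in the 2 lines and those with the widest and narrowest range, and 2 genes per knockdown or fewer for the other list. Promoter windows are RefSeq's on GRCh38.p14. Same-numbered samples of replicates 3 to 6 did not deviate together (median r -0.02 in SW480 and 0.00 in SW620), so the numbers pair nothing there. There were 0 identical columns, and the highest correlation between arrays was 0.998. The fit was tested on simulated data made for HRAS in SW620 with 19775 genes. There it recovered 76.1%, 97% and 100% of changes of 0.5, 1 and 2 log2 units, and 7.61% of its calls were false. The simulated noise was independent between arrays, with 1 SD per gene and no difference between replicate sets. The measured arrays differed between sets and lay closer together within replicates 3 to 6, so these rates need not hold for them. Alternatives were other references, no naming-style term, a replicate block, the mean of probe sets, a filter on dim genes, quantile normalisation once more, pairs of arrays averaged, subsets of replicates and arrays that stand apart. Genes not named here were not analysed here. Figures were drawn with matplotlib 3.10.9 in Python 3.11.15.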

Additional observations from a re-analysis of the deposited data

Results flagged for a closer look

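In 9 of the 12 knockdown groups, 1 array lay far from the others in the mean of the 36 genes minus the vector controls of its replicate set. Chance alone picks out about 1 in 20 groups where the arrays of a group are alike in kind, which does not hold here: for the 36 genes the median SD within a group was 0.07 over replicates 3 to 6, and the median residual SD over all arrays was 0.41. In SW480 replicate 1 was low for CDK5 (-0.3683), MAP2K1 (-0.9709), MAP2K2 (-0.2512) and MAPK3 (-1.4083), and replicate 2 was high for NGFR (0.0580). In SW620 replicate 2 was high for CDK5 (1.7413), HRAS (1.6035) and NGFR (1.6835), and replicate 1 was low for MAP2K2 (-1.2509). All 9 arrays are from replicates 1 and 2, which are also separate replicate sets.

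The change also differed between the lines by a direct test. By limma, 19 of the 36 genes had a larger change in SW620 with CDK5 (6.5% of all genes), 28 with HRAS (10.2%), 21 with MAP2K1 (5.64%), 5 with MAP2K2 (4.53%), 25 with MAPK3 (8.17%) and 29 with NGFR (10.5%). Leaving out each replicate number in turn gave 7 to 35, 12 to 34, 4 to 34, 0 to 33, 20 to 29 and 19 to 33 in that order. For these reruns the share of all genes called is not given here.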

How the results depend on the processing

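Counts of the 36 genes called are given wherever an alternative moved them by over 1.5 times. The others stayed within it. Except with non-transduced cells as reference, the share of all genes called under these alternatives is not given. The counts can therefore not be set against it. In SW620 against vector controls, no called change turned sign except with replicates 1 and 2 only (2 of 188) and with non-transduced cells as reference (41 of 188), and the counts stayed within 1.5 times whichever replicate was left out. The arrays of replicates 1 and 2 spread widely, and the count of calls depends on how many of replicates 3 to 6 are taken as separate. Where a count moved, the cause was not tested. The non-transduced reference, replicates 1 and 2 only, the arrays that stand apart and the line coding were chosen after seeing the data.

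With the replicate block in place of the naming style the count became 3 (MAP2K2) for the line difference. With no term for naming style the count became 1 (HRAS), 0 (NGFR) for knockdowns in SW480 and 19 (CDK5), 15 (HRAS), 6 (MAP2K1 and NGFR), 4 (MAP2K2), 9 (MAPK3) for knockdowns in SW620. It became 3 (CDK5 and NGFR), 2 (HRAS), 0 (MAP2K1 and MAP2K2), 1 (MAPK3) for the line difference and 2 (HRAS), 0 (NGFR) for the other-5 comparison in SW480. It became 0 (CDK5, HRAS, MAPK3, NGFR) for the other-5 comparison in SW620 and 17 for the lines in vector controls. It became 0 for vector controls against non-transduced SW620. With the empty vector alone as reference the count became 1 (NGFR) for knockdowns in SW480 and 3 (MAP2K2) for the line difference. With the non-target hairpin alone the count became 1 (HRAS), 0 (NGFR) for knockdowns in SW480 and 4 (CDK5 and MAP2K1), 14 (HRAS), 1 (MAP2K2), 15 (MAPK3), 18 (NGFR) for the line difference. It became 20 for the lines in vector controls and 1 for vector controls against non-transduced SW620. With the mean of all probe sets the count became 1 (MAP2K2), 6 (NGFR) for knockdowns in SW480 and 1 (CDK5, MAP2K2, MAPK3), 10 (NGFR) for the other-5 comparison in SW480. It became 8 for vector controls against non-transduced SW620. Without dim genes the count became 1 (CDK5 and MAP2K2) for the other-5 comparison in SW480 and 2 (NGFR) for the other-5 comparison in SW620. After a second quantile normalisation the count became 1 (MAP2K2) for the other-5 comparison in SW480. With arrays averaged in pairs the count became 1 (HRAS), 0 (NGFR) for knockdowns in SW480 and 12 (CDK5), 5 (MAP2K1), 2 (MAP2K2), 20 (MAPK3), 19 (NGFR) for knockdowns in SW620. It became 0 (CDK5, MAP2K1, MAP2K2), 2 (HRAS), 3 (MAPK3 and NGFR) for the line difference and 1 (HRAS), 0 (NGFR) for the other-5 comparison in SW480. It became 0 (CDK5, HRAS, NGFR) for the other-5 comparison in SW620 and 0 for vector controls against non-transduced SW620. With replicates 3 to 6 only the count became 20 (CDK5, MAP2K1, MAPK3), 23 (HRAS), 25 (MAP2K2), 28 (NGFR) for knockdowns in SW480 and 36 (CDK5 and MAP2K1), 34 (MAP2K2) for the line difference. It became 20 (CDK5), 30 (HRAS and NGFR), 16 (MAP2K1), 27 (MAP2K2), 17 (MAPK3) for the other-5 comparison in SW480 and 20 (CDK5), 16 (HRAS), 14 (MAP2K1), 18 (MAP2K2), 19 (MAPK3), 27 (NGFR) for the other-5 comparison in SW620. It became 7 (SW480), 2 (SW620) for non-target against empty vector. Without arrays of degraded RNA the count became 5 (NGFR) for knockdowns in SW480 and 12 (MAP2K2) for the line difference. It became 1 (CDK5 and MAP2K2), 2 (MAPK3), 11 (NGFR) for the other-5 comparison in SW480 and 2 (CDK5), 1 (MAPK3), 0 (NGFR) for the other-5 comparison in SW620. It became 10 for vector controls against non-transduced SW620. Without the SW480 arrays that carry SW620 genes the count became 10 (MAP2K1), 3 (MAP2K2), 16 (MAPK3) for the line difference and 1 (MAP2K2), 12 (NGFR) for the other-5 comparison in SW480. It became 2 (NGFR) for the other-5 comparison in SW620. Without all arrays that stand apart the count became 2 (MAP2K2), 1 (MAPK3), 6 (NGFR) for knockdowns in SW480 and 31 (CDK5), 9 (MAP2K1), 12 (MAP2K2), 16 (MAPK3) for the line difference. It became 1 (CDK5 and MAP2K2), 16 (NGFR) for the other-5 comparison in SW480 and 2 (CDK5), 1 (MAP2K2), 0 (NGFR) for the other-5 comparison in SW620. It became 18 for vector controls against non-transduced SW620. With replicates 1 and 2 only the count became 0 (HRAS and NGFR) for knockdowns in SW480 and 0 (CDK5, HRAS, MAP2K1, MAP2K2, MAPK3, NGFR) for knockdowns in SW620. It became 0 (CDK5, HRAS, MAP2K1, MAP2K2, MAPK3, NGFR) for the line difference and 0 (HRAS and NGFR) for the other-5 comparison in SW480. It became 0 (CDK5, HRAS, MAPK3, NGFR) for the other-5 comparison in SW620 and 4 for the lines in vector controls. It became 0 for vector controls against non-transduced SW620. With non-transduced cells as reference the count became 2 (HRAS), 0 (NGFR) for knockdowns in SW480 and 0 (CDK5, HRAS, MAP2K1, MAP2K2, MAPK3, NGFR) for knockdowns in SW620. With the lines compared at the naming style that only non-transduced cells have the count became 0 for the lines in vector controls.

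Leaving out each replicate number in turn gave 0 to 4 (CDK5), 1 to 10 (HRAS), 0 to 4 (MAP2K1), 0 to 8 (MAP2K2), 0 to 4 (MAPK3), 0 to 12 (NGFR) for knockdowns in SW480. The range was 7 to 35 (CDK5), 12 to 34 (HRAS), 4 to 34 (MAP2K1), 0 to 33 (MAP2K2), 19 to 33 (NGFR) for the line difference. The range was 0 to 4 (CDK5), 3 to 11 (HRAS), 0 to 4 (MAP2K1), 0 to 4 (MAP2K2), 0 to 4 (MAPK3), 3 to 25 (NGFR) for the other-5 comparison in SW480. The range was 0 to 2 (CDK5), 2 to 5 (HRAS), 0 to 2 (MAP2K1), 0 to 3 (MAP2K2), 2 to 12 (MAPK3), 0 to 9 (NGFR) for the other-5 comparison in SW620. The range was 0 to 33 for vector controls against non-transduced SW620. Changes that turned sign were, with replicates 1 and 2 only, CDC25A with HRAS in SW480 (0.1901), MCM5 with MAP2K2 (-0.0650) and LIG1 with MAPK3 (-0.3352) in SW620. In the lines compared at the non-transduced naming style they were MCM6 (0.0521), RFC4 (0.0655), POLA1 (0.1007) and SLBP (0.0015). Without replicate 1, ORC1 (0.0431) and TK1 (0.1196) turned in the vector controls against non-transduced SW620 cells. Without replicate 2 these were -2.1114 and -2.3755. With non-transduced cells as reference the SW620 changes below 0 were as follows. For CDK5 they were MCM2 -0.0289, MCM3 -0.2262, MCM5 -0.1901, MCM7 -0.1268, CDC45 -0.0058, ORC1 -0.0782, LIG1 -0.1539. For HRAS they were MCM2 -0.0147, MCM3 -0.0929, MCM5 -0.3266, MCM7 -0.0016, LIG1 -0.1294. For MAP2K1 they were MCM3 -0.0844, MCM5 -0.3571, ORC1 -0.4113, PRIM1 -0.0046, LIG1 -0.2352, CHAF1A -0.0054. For MAP2K2 they were MCM3 -0.1581, MCM5 -0.3647, CDC45 -0.0986, ORC1 -0.0751, GINS2 -0.1718, POLA1 -0.0441, LIG1 -0.2006, CHAF1A -0.0162, TK1 -0.1997, UHRF1 -0.1475. For MAPK3 they were MCM3 -0.3091, ORC1 -0.4059, LIG1 -0.4937, CHAF1B -0.0887. For NGFR they were MCM2 -0.1409, MCM3 -0.1120, MCM5 -0.1425, MCM7 -0.0615, MCM10 -0.0008, CDC45 -0.1323, ORC1 -0.1534, LIG1 -0.2489, CDK2 -0.0418.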
